A study of Mus musculus with 8 samples.

Results

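The ATPases CHD4 and Snf2h were compared by where each sits in the genome of 3134 cells, a mouse mammary epithelial line that the labels trace to a subclone of 904.13. The comparison used the 2 chromatin immunoprecipitation (ChIP-seq) libraries made with an antibody to CHD4 and the 2 made with an antibody to Snf2h, out of 8 libraries in the series. All 4 came from untreated cells with no genetic change named for them, and the antibody is the difference between the groups that the labels name. The series also holds 2 Brg1 libraries, read here as an outside readout, and 2 DNA inputs, not analysed here. Each library came with its own list of hotspots, intervals enriched for sequence tags, on the mouse mm9 assembly. For each antibody the 2 lists were merged wherever hotspots shared at least 1 bp, and a merged region with hotspots from both lists was called a site. This rule gave 30521 CHD4 sites and 18232 Snf2h sites. Merged with each other they formed 36012 regions, of 61081 regions that held a site of CHD4, Snf2h or Brg1. Whether replicates were separate cultures is not given, so their spread may be technical, and 1 cell line stands for the tissue. The immunoprecipitation method is likewise not given in the sources used here.

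CHD4 is the motor subunit of NuRD, a complex that joins nucleosome remodelling to histone deacetylation and is best known for repression, although it is also found at active enhancers and promoters. Snf2h, the product of Smarca5, is the motor of ISWI complexes such as ACF, CHRAC and WICH. ISWI enzymes slide nucleosomes into regular spacing and are known for their part in nucleosome order around insulator sites and in replication. Both motors belong to the SNF2 family, and by its title the series concerns remodeling systems that overlap across the genome.

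The lists differed in length and threshold before any comparison. CHD4 replicate 2 stood apart, with 293135 hotspots and a lowest Z score of 2.00. CHD4 replicate 1 had 39797 hotspots, Snf2h replicate 1 had 32310 and Snf2h replicate 2 had 79969, with lowest Z scores between 8.50 and 8.77. A replicated site rests mainly on the shorter list of its antibody: the CHD4 sites number 76.7% of CHD4 replicate 1 hotspots and 10.4% of CHD4 replicate 2 hotspots. The Snf2h sites number 56.4% of Snf2h replicate 1 hotspots and 22.8% of Snf2h replicate 2 hotspots. Tag totals are not part of the lists, so depth is unknown. The part that background common to the libraries has in the shared places was not tested.

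CHD4 and Snf2h met at 12224 of the 36012 regions (33.9%). Another 18174 regions (50.5%) were CHD4 sites alone, and 5614 (15.6%) were Snf2h sites alone. Of the CHD4 sites, 40.5% overlapped an Snf2h site (95% Wilson interval 39.9% to 41.0%). The background, all 298496 merged regions with any CHD4 hotspot, was 5.82%. That background is mostly the list of CHD4 replicate 2, with its lowest Z score of 2.00, so its threshold is unlike that of the sites. Of CHD4 replicate 1 hotspots taken alone, 34.6% overlapped an Snf2h site. Of the Snf2h sites, 69.2% overlapped a CHD4 site (68.5% to 69.9%), against 30.2% of all 93135 merged regions with any Snf2h hotspot. Among the 316784 merged regions with any Brg1 hotspot, 5.32% overlapped an Snf2h site and 9.83% a CHD4 site. Snf2h sites covered 0.536% of the chromosomes' span and CHD4 sites 1.24%. Wilson intervals here and below cover counting error only, and neighbouring sites are not independent. Between single lists the share spread widely. CHD4 replicate 1 hotspots overlapped Snf2h replicate 1 at 36.1% and Snf2h replicate 2 at 68.7%, and CHD4 replicate 2 hotspots did so at 6.66% and 14.98%. The 4 shares of Snf2h hotspots overlapping CHD4 ran from 33.9% to 62.5%.

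The shares moved with the number of sites in each set. When the CHD4 sites were held to the 18232 of highest mean percentile, as many as there were Snf2h sites, 48.3% of the CHD4 sites and 49.8% of the Snf2h sites overlapped. Within-list percentile means the rank of a hotspot's maximum tag density (MaxD) in its own list, and a site takes the mean over its 2 libraries. Leaving out Snf2h replicate 1, so that every hotspot of Snf2h replicate 2 counted as a site, turned the order around: 78.4% of CHD4 sites and 33.7% of Snf2h sites overlapped. Leaving out CHD4 replicate 1 gave 5.79% and 88.9%, and leaving out CHD4 replicate 2, the list that stands apart, gave 34.6% and 71.7%. Without Snf2h replicate 2 the shares were 43.7% and 44.7%. In these runs the larger share belonged to the set with fewer sites, except without Snf2h replicate 2, where 30521 CHD4 sites met 32303 Snf2h sites.

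Where the sites met, they usually met as 1 CHD4 site and 1 Snf2h site. This was so at 11751 of the 12224 shared regions (96.1%). At 350 regions 1 CHD4 site held or touched 2 or more Snf2h sites, at 94 the reverse was true, and at 29 there were several of each. The 12741 overlapping pairs shared 9.69 Mb, which is 70.2% of the bases in Snf2h sites and 30.3% of those in CHD4 sites. The median overlap was 667 bp. In 61.9% of pairs the shorter site lay wholly within the longer, and 26.9% of the bases in either set lay in both.

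Snf2h sites tended to lie inside CHD4 sites. In 6752 of 12741 pairs (53.0%, Wilson interval 52.1% to 53.9%) the Snf2h site was contained in the CHD4 site, in 1128 (8.85%) the CHD4 site was contained in the Snf2h site, and 4858 (38.1%) crossed with an overhang on each side. Containment moved with width. The CHD4 site was the wider of the pair at 79.7% of pairs, with medians of 1066 bp and 713 bp. Where the CHD4 site was the narrower or equal, it lay inside the Snf2h site in 43.5% of 2592 pairs. Where it was up to 1.5 times wider, the Snf2h site lay inside in 53.0% of 5223 pairs. Where it was more than 2 times wider, this was so in 84.2% of 2602 pairs. The direction of nesting varied with the lists. Between single lists, Snf2h lay inside CHD4 more often than the reverse in 3 of 4 library pairs, at 44.3% against 12.4% for both replicates 1, 60.1% against 3.67% for CHD4 replicate 2 with Snf2h replicate 1, and 40.6% against 9.94% for both replicates 2. It turned for CHD4 replicate 1 with Snf2h replicate 2, at 20.7% against 34.7%. Without CHD4 replicate 2, when CHD4 replicate 1 hotspots stood alone against merged Snf2h sites, Snf2h lay inside CHD4 in 13.5% of pairs and CHD4 inside Snf2h in 47.4%. Without Snf2h replicate 2 the shares were 80.8% and 1.13%. When all hotspots were given a fixed width of 500 bp they were 20.02% and 12.9%. Within the containing CHD4 site, the Snf2h midpoint was a median of 107 bp from the CHD4 midpoint, and this used 0.559 of the room that containment left. Even placement would give 0.5. The outermost of 5 equal parts of that room held 25.4% of the contained sites and the innermost 16.5%.

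At shared regions, by the mean of the medians, hotspots of CHD4 and Snf2h lay about as far from each other as hotspots of replicate libraries did. These regions were kept because sites of both overlapped, which favours short distances in all 6 library pairs. Places where the remodelers lay apart are not measured here. At the 12224 shared regions the midpoint of the tallest hotspot was taken in each library, and the distance between libraries was read for all 6 library pairs. The replicates of CHD4 lay a median of 119.5 bp apart (interquartile range 47.5 to 259 bp), and those of Snf2h 72.0 bp (30.0 to 165.5 bp). CHD4 replicate 1 lay 68.0 bp from Snf2h replicate 1 and 70.0 bp from Snf2h replicate 2, closer than it lay to its own replicate. CHD4 replicate 2 lay 135 bp and 112 bp from them. The far tails differed more. Distances beyond 500 bp were found at 3.52% of regions for the Snf2h replicates and 8.87% for the CHD4 replicates. For the cross-antibody pairs these shares were 6.48% to 10.2%. The mean of the medians was 95.75 bp for same-antibody pairs and 96.3 bp for cross-antibody pairs, a difference of -0.562 bp. By an exact permutation over the 3 ways of splitting 4 libraries into pairs, the one-sided p was 0.667. The smallest p this design allows is 0.333, so 0.05 could not be reached.

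**Figure D1:**
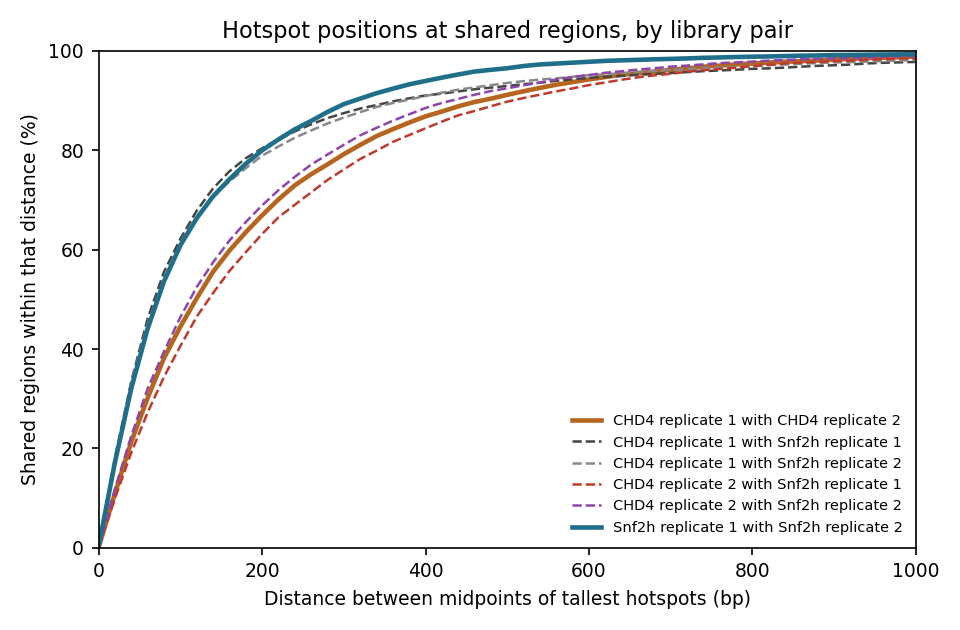
Share of the 12224 shared regions (vertical axis, %) in which the midpoints of the tallest hotspots of a library pair lay within a given distance (horizontal axis, bp). Solid lines are replicates of an antibody and broken lines are CHD4 with Snf2h. Both pairs of CHD4 replicate 1 with Snf2h stay close to the Snf2h replicates up to 200 bp and lie below them at 500 bp. From 20 to 500 bp every pair with CHD4 replicate 2 lies lower than the pairs without it. The curves then cross, and at 1000 bp every pair with CHD4 replicate 2 lies above both pairs of CHD4 replicate 1 with Snf2h.

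The distance moved with 1 library, CHD4 replicate 2. All 3 pairs that include it had medians of 112 bp or more, and all 3 pairs without it had medians of 72.0 bp or less. Without CHD4 replicate 2, the cross-antibody distance was 64.2 bp, and without CHD4 replicate 1 it was 116 bp. Regions with several hotspots can place the tallest one differently in each library. At the 9001 regions with exactly 1 hotspot in each library, same-antibody and cross-antibody pairs both averaged 75 bp. Replicated sites as a whole lay a median of 105 bp apart by their midpoints (39.5 to 246.5 bp over 12741 pairs), with 75.5% within 250 bp and 8.96% beyond 500 bp.

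Sites that sat side by side without touching were few. Of the 18174 sites of CHD4 alone, 1198 (6.59%, Wilson interval 6.24% to 6.96%) had an Snf2h site within 1000 bp of an edge. The background over all merged CHD4 hotspot regions without an Snf2h site was 3.17%, and it too is mostly the list of CHD4 replicate 2. With CHD4 replicate 1 hotspots alone the share was 8.13%. Of the 5614 sites of Snf2h alone, 409 (7.29%, 6.63% to 7.99%) had a CHD4 site that close, against a background of 5.6%. Of the 1198 CHD4 sites, 970 lay next to an Snf2h site that already overlapped another CHD4 site. For the 409 Snf2h sites, 185 lay next to a CHD4 site that overlapped another Snf2h site. Sites shared with the other antibody were common in the full sets, at 69.2% for Snf2h and 40.5% for CHD4. Whether adjacency adds to these shares was not tested. There were 230 pairs that joined a CHD4 site and an Snf2h site that each had no overlap, at a median gap of 442 bp. The typical site of one antibody alone was far from the other. The median gap was 21919.5 bp for CHD4 and 20782 bp for Snf2h, and 13.2% and 15.03% were more than 100000 bp from any site of the other.

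**Figure D2:**
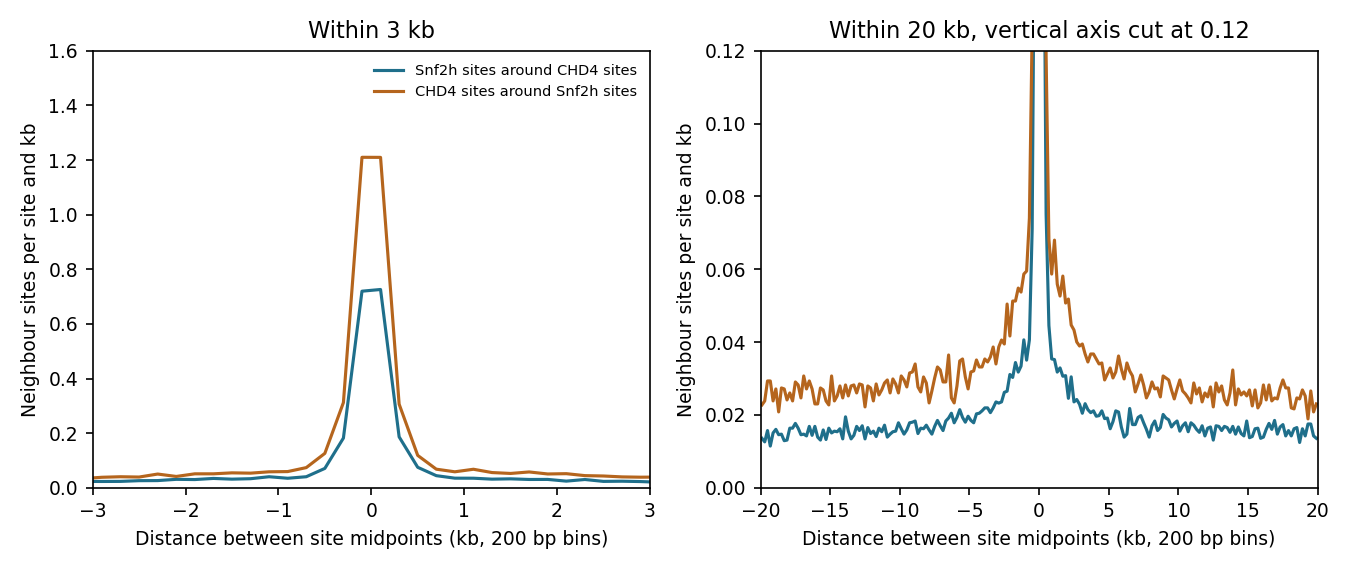
Neighbouring sites per site and kb (vertical axis) against the distance between site midpoints (horizontal axis, kb, in bins of 200 bp), for Snf2h sites around CHD4 sites and CHD4 sites around Snf2h sites. The left panel shows the peak at the centre and the right panel the slow fall of both flanks on an axis cut below the peak.

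Outside the overlap, neighbours thinned out gradually with distance. Snf2h sites began 1 to 250 bp beyond a CHD4 site at 0.0397 per site and kb of flank, against 0.0142 at 10 to 50 kb, a ratio of 2.80. The ratio was 2.78 for the next step, up to 500 bp, 2.16 from there to 1000 bp, and 1.41 between 2000 and 5000 bp. The ratios at the shortest gaps were higher for sites of the same antibody, but the 2 kinds of ratio are not a like measure. CHD4 sites began 1 to 250 bp from another CHD4 site at 6.93 times their rate at 10 to 50 kb, and Snf2h sites from another Snf2h site at 5.53 times. Overlapping sites are counted in none of these rates. By the merge rule sites of the same antibody cannot overlap, so every close neighbour of the same antibody falls in a gap. The rule leaves out only close neighbours of the other antibody, at 12741 overlapping pairs. Between 1000 and 2000 bp the 3 ratios were 1.82, 1.94 and 1.96. The adjacency shares moved with list length. Without Snf2h replicate 1, 19.8% of the sites of CHD4 alone had Snf2h within 1000 bp, and without CHD4 replicate 1, 29.1% of the sites of Snf2h alone had CHD4 that close. Without CHD4 replicate 1 the CHD4 share was 3.22%, and without CHD4 replicate 2 the Snf2h share was 11.3%. Without Snf2h replicate 2 the Snf2h share was 4.93%.

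Wide and tall sites were co-occupied more often, in both sets. By the MaxD of CHD4 replicate 1, 22.4% of CHD4 sites in the lowest decile and 68.0% in the highest held an Snf2h site, and by CHD4 replicate 2 the shares were 21.95% and 61.2%. By Snf2h replicate 1, 38.6% of Snf2h sites in the lowest decile and 91.2% in the highest held CHD4, and by Snf2h replicate 2 the shares were 32.4% and 92.2%. The share rose at each step of the 10 deciles in all 4 libraries. By width, the narrowest decile of CHD4 sites (median 473 bp) held Snf2h at 23.0% and the widest (2126 bp) at 62.6%. For Snf2h sites these shares were 38.8% at 423 bp and 90.4% at 1434.5 bp. CHD4 co-occupancy was flat, from 34.9% to 35.0%, across the third to the fifth width decile, while that of Snf2h climbed from 54.8% to 69.0% over the same steps.

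**Figure D3:**
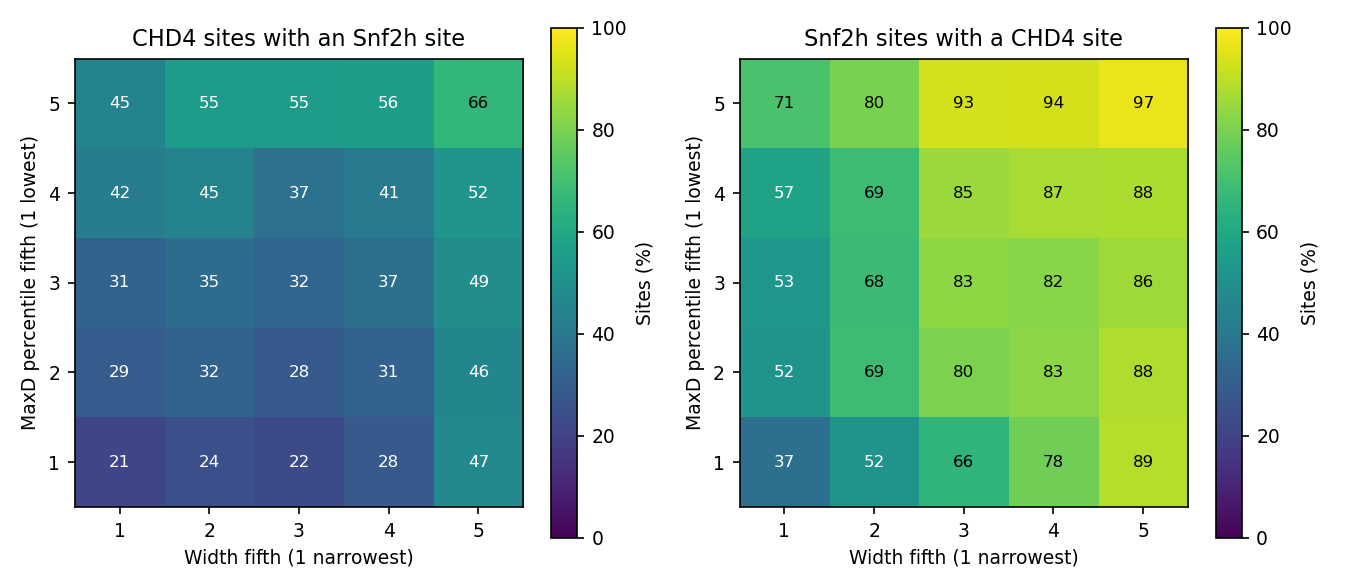
Percentage of sites co-occupied in cells of equal width (horizontal axis, quintile) and equal mean MaxD percentile (vertical axis, quintile), for CHD4 sites on the left and Snf2h sites on the right. Bins are common to both panels, and in all 25 cells the Snf2h value is the higher.

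At matched width and percentile the asymmetry between the sets grew. Sites of both antibodies were put in the same 25 cells, 5 quintiles of width by 5 of mean percentile. Standardised to common weights, 39.2% of CHD4 sites and 74.2% of Snf2h sites were co-occupied, a difference of 34.9 points, against 28.8 points without matching. Snf2h was the higher in 25 of 25 cells, by 15.3 to 52.2 points. The narrowest and lowest cell held Snf2h at 20.9% of 2507 CHD4 sites and CHD4 at 36.9% of 2568 Snf2h sites. The widest and tallest held Snf2h at 66.3% of 3094 CHD4 sites and CHD4 at 96.99% of 564 Snf2h sites. Matching leaves the difference in the number of sites in place. Equal percentile is also not equal strength, because CHD4 replicate 2 ranks its hotspots in a list with a lowest Z score of 2.00. CHD4 sites with and without Snf2h had median percentiles of 95.1 and 91.8 in that list, and 70.0 and 51.0 in CHD4 replicate 1. With all lists held to a common lowest Z score, the matched difference was 18.2 points. Starting from 18232 sites of each, the matched shares were 47.0% and 69.5%, 22.5 points apart. Snf2h was higher in 18 of the 20 cells that held 20 sites of each or more. Only the CHD4 sites were cut, to a percentile of 69.7 or more, and cells with too few sites of either were dropped. The matched shares therefore do not cover all 18232 of each, whose shares before matching were 48.3% and 49.8%. The sign turned with the lists used. Without Snf2h replicate 1 the difference was -20.8 points, and between CHD4 replicate 1 and Snf2h replicate 2 as single lists it was -32.5 points. The other 3 single-list pairs gave 14.8, 37.6 and 53.4 points. Without CHD4 replicate 1 it was 64.0 points, and without CHD4 replicate 2 it was 19.4 points.

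Shared sites were taller than unshared ones in each of the 4 libraries, by a modest factor. In CHD4 replicate 1 the median MaxD was 18.7 at CHD4 sites with Snf2h (interquartile range 13.2 to 27.04) and 14.2 at those without (10.7 to 19.8), in the authors' units. CHD4 replicate 2 gave 12.4 (8.15 to 17.8) and 9.39 (5.93 to 13.8). Each is 1.32 times higher. In Snf2h replicate 1 the medians were 20.1 (15.2 to 26.3) at Snf2h sites with CHD4 and 15.9 (11.8 to 20.1) at those without, 1.26 times higher. The widest gap was in Snf2h replicate 2, at 26.0 (16.8 to 40.4) and 16.1 (9.46 to 25.5), 1.62 times. The interquartile ranges of shared and unshared sites overlapped in every library.

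At the shared regions, height agreed in rank between CHD4 and Snf2h, but less than between replicates. Spearman's rho of MaxD over the 12224 regions was 0.732 for the CHD4 replicates and 0.646 for the Snf2h replicates. The 4 cross-antibody values were 0.463 for CHD4 replicate 1 with Snf2h replicate 1, 0.402 for CHD4 replicate 1 with Snf2h replicate 2, 0.413 for CHD4 replicate 2 with Snf2h replicate 1, and 0.404 for CHD4 replicate 2 with Snf2h replicate 2. Their mean was 0.421 ± 0.0288 (SD, n = 4 library pairs, which reuse the same 4 libraries). Both replicate values lay above all 4 cross values. The mean same-antibody rho exceeded the mean cross-antibody rho by 0.268, the largest of the 3 splits (exact permutation p = 0.333, one-sided, the smallest possible). Regions are not independent replicates, and rho is given as a description. The points share their region, and rho of MaxD with the width of the merged region ran from 0.107 in Snf2h replicate 1 to 0.467 in CHD4 replicate 2. Given the width, the cross-antibody mean was 0.390 and the replicate values 0.701 and 0.643.

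**Figure D4:**
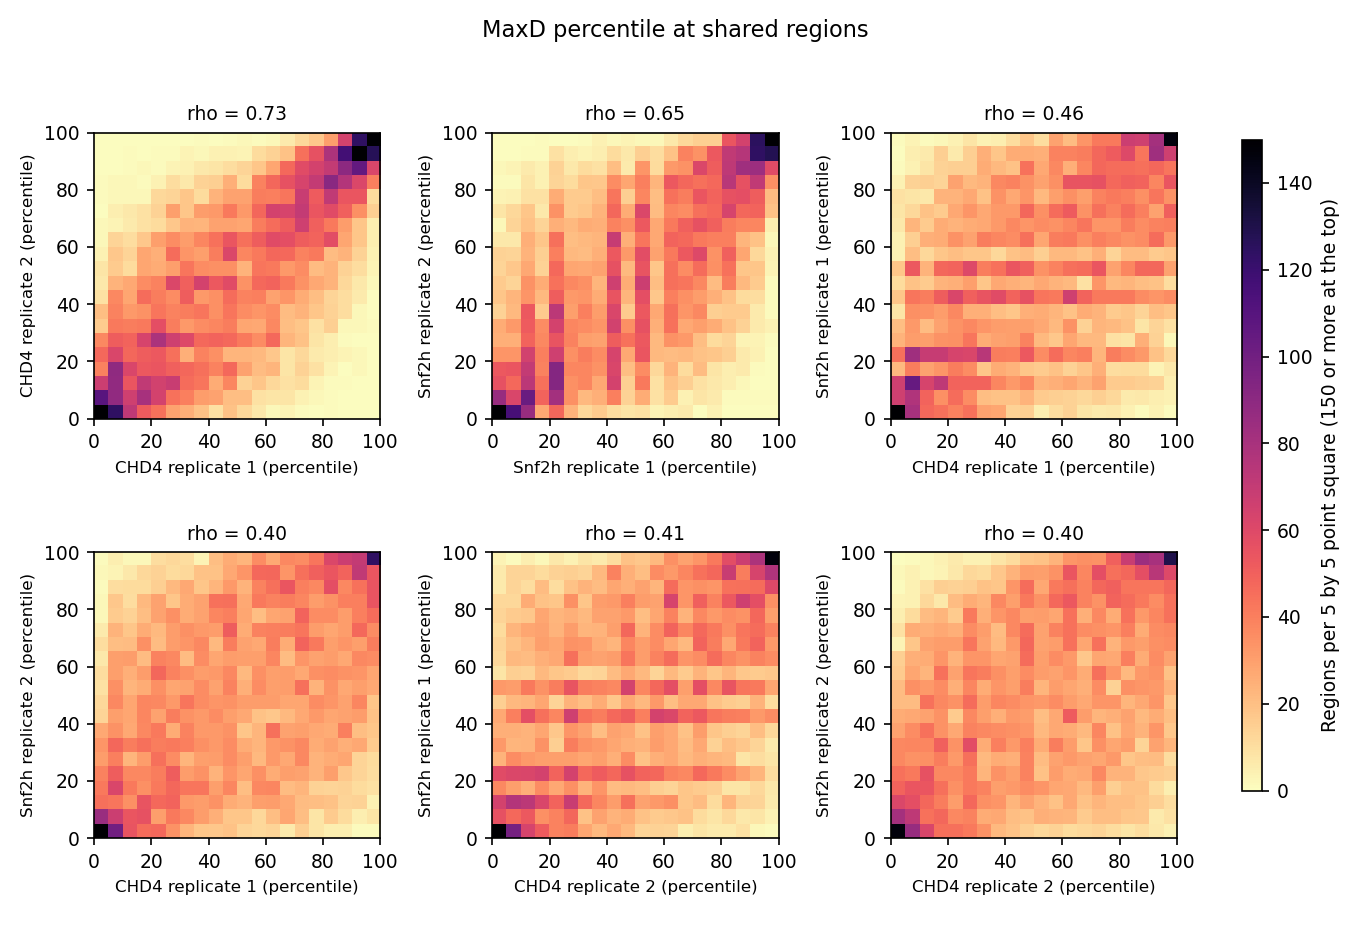
Number of shared regions by MaxD percentile in 2 libraries (both axes, percentile among the 12224 shared regions), for the 6 library pairs, with Spearman's rho above each panel. Replicates of an antibody follow the diagonal more closely than CHD4 with Snf2h; stripes in panels with Snf2h replicate 1 come from tied densities.

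By quintile of mean rank, matches were more frequent at the ends of the scale than in the middle. A positive rank correlation tends to give this pattern by itself, so it is no separate result. Of the regions in the lowest CHD4 quintile of mean rank, 46.0% were also in the lowest Snf2h quintile and 2.13% in the highest. Of the highest CHD4 quintile, 40.4% were in the highest Snf2h quintile and 5.40% in the lowest. In the middle CHD4 quintile, each Snf2h quintile took between 14.7% and 23.6% of the regions. Snf2h replicate 1 had only 142 distinct densities over these regions, and the 5 most common took 19.6% of them, against 3.68% in Snf2h replicate 2. Cross-antibody rho was lower when only taller hotspots were kept, at 0.248 with the taller 50% of each list and 0.285 with lists of equal length. Such cuts narrow the range of MaxD that is ranked, and the part of this was not tested. Between single lists, each over its own overlapping regions, cross-antibody rho ran from 0.490 to 0.596. Cross-antibody rho was 0.435 to 0.458 when each of the 4 libraries was left out in turn.

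Regions where the replicates agreed on which remodeler ranked higher occurred in similar numbers in both directions. Ranks were taken in each library over the same shared regions, which favours such a balance. An even split over the possible orders would give 16.7% each. Both Snf2h libraries ranked a region above both CHD4 libraries at 3330 regions (27.2% of those compared), and both CHD4 libraries above both Snf2h libraries at 3348 (27.4%). The 4 orders that mix the antibodies held 10.1% to 13.5% each. Regions where CHD4 ranked higher were wider, with a median of 1280.5 bp against 961 bp where Snf2h did. The CHD4 sites differed in width, at 1247.5 bp against 864 bp, while the Snf2h sites had medians of 704.5 bp and 721.5 bp.

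Brg1, the motor of SWI/SNF complexes, was not used to choose any of these regions and its share varied more with the height of CHD4 than with that of Snf2h. A replicated Brg1 site lay at 94.2% of the regions where CHD4 ranked higher (Wilson interval 93.4% to 94.98%) and at 75.2% of those where Snf2h did (73.7% to 76.6%), a difference of 19.04 points. The background, all merged regions of any CHD4 or Snf2h hotspot, was 14.1%, and it is mostly the list of CHD4 replicate 2. From the lowest to the highest CHD4 quintile of shared regions the Brg1 share rose from 58.3% to 97.2%, and from the lowest to the highest Snf2h quintile it rose from 74.1% to 92.8%. Within the lowest CHD4 quintile the Brg1 share was 54.5%, 61.4%, 57.5%, 65.9% and 73.1% from the lowest to the highest Snf2h quintile. The last of these rests on 52 regions. Within the middle CHD4 quintile the Brg1 share took no single direction across the Snf2h quintiles, at 94.7%, 88.02%, 86.9%, 80.4% and 89.4%. In the highest CHD4 quintile it stayed between 96.5% and 99.3%. The difference of 19.04 points was 5.55 without the tallest 1% of each list, a cut that was made in the Brg1 lists too. It was 11.2 without Snf2h replicate 1 and 3.85 without Brg1 replicate 1. With Brg1 replicate 2 alone 97.2% of all shared regions counted as Brg1 sites. CHD4 site width moved with this difference, and its part was not tested.

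Brg1 sites were less frequent at sites of Snf2h alone than in the other classes. A Brg1 site was present at 82.8% of the shared regions (82.2% to 83.5%), at 74.9% of the sites of CHD4 alone (74.2% to 75.5%) and at 39.2% of the sites of Snf2h alone (38.0% to 40.5%). Median widths in these classes were 1117 bp, 822 bp and 561 bp. Sites of CHD4 alone and of Snf2h alone were not matched for width or height, and the part of either was not tested. Each Brg1 library gave the same order. Without CHD4 replicate 1, when every hotspot of CHD4 replicate 2 counted as a site, the order of the last 2 classes turned, with 12.4% for CHD4 alone and 18.2% for Snf2h alone. Without CHD4 replicate 2 they were 62.1% and 43.0%. The share at sites of Snf2h alone was lower when an Snf2h library was left out, at 19.9% (replicate 1) and 16.9% (replicate 2). Brg1 replicate 1 had a hotspot at 83.3%, 74.8% and 42.3% of these classes, and Brg1 replicate 2 at 97.2%, 92.3% and 72.6%. Where a Brg1 site was present it ranked at a median within-list percentile of 90.7 at shared regions, 90.0 with CHD4 alone and 80.3 with Snf2h alone.

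At matched width and height, Snf2h sites with and without CHD4 differed in Brg1, and CHD4 sites with and without Snf2h differed little. Among CHD4 sites in the same cells of width and percentile, Brg1 was present at 76.9% of those with Snf2h and at 78.7% of those without, a difference of -1.82 points, with the shared sites higher in 10 of 25 cells. Among Snf2h sites it was present at 79.2% of those with CHD4 and 54.6% of those without, a difference of 24.7 points, with the shared sites higher in 23 of 25 cells. In the lowest percentile quintile, 70.9% of shared and 22.8% of unshared Snf2h sites held Brg1, and in the highest quintile 89.7% and 60.1% did. For CHD4 sites these values were 54.7% and 48.6% in the lowest quintile and 96.02% and 96.4% in the highest. The difference within Snf2h sites kept its sign with every library left out, from 13.9 points without Brg1 replicate 1 to 48.8 points without Snf2h replicate 2. The small difference within CHD4 sites did not: it was 30.5 points without CHD4 replicate 1, 6.18 without CHD4 replicate 2, 5.29 without Snf2h replicate 1 and 1.89 without Brg1 replicate 1.

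**Figure D5:**
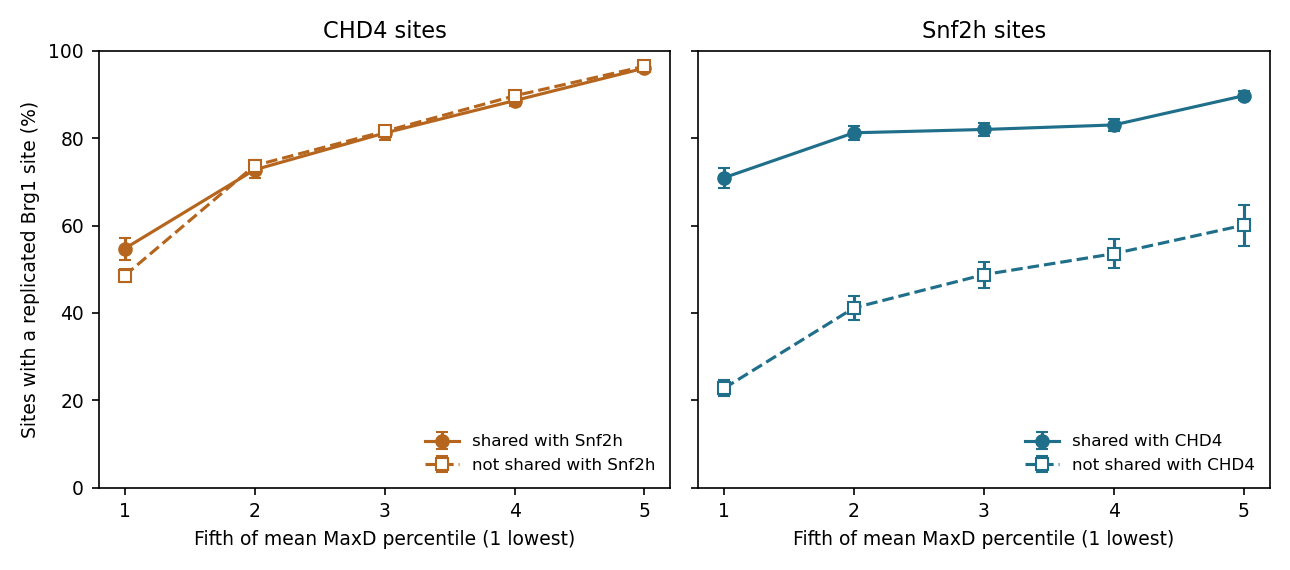
Percentage of sites with a replicated Brg1 site (vertical axis) by quintile of mean MaxD percentile (horizontal axis), for CHD4 sites on the left and Snf2h sites on the right. Filled points are sites shared with the other remodeler, open points are unshared sites, and bars are 95% Wilson intervals; the CHD4 curves lie together above the lowest quintile, and the Snf2h curves stay apart, from 70.9% and 22.8% to 89.7% and 60.1%.

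Sites of one antibody alone were divided by whether any single library of the other had a hotspot there. Of the 18174 sites of CHD4 alone, 62.4% held a hotspot of Snf2h replicate 2 but not of Snf2h replicate 1, 4.64% the reverse, and 31.6% (5745 sites) no Snf2h hotspot at all. Of the 5614 sites of Snf2h alone, 63.1% held a hotspot of CHD4 replicate 2 but not of CHD4 replicate 1, 11.5% the reverse, and 24.4% (1371 sites) none. In both classes most of the single hotspots came from the longer list. Shares over whole lists were similar in size. Of all CHD4 replicate 1 hotspots, 68.7% overlapped Snf2h replicate 2. Of Snf2h replicate 1 and Snf2h replicate 2 hotspots, 62.5% and 56.6% overlapped CHD4 replicate 2. These are not a like measure, because they include hotspots in shared regions and those that also overlapped the other replicate. Sites bare of the other remodeler were lower and narrower than the rest of their class. Their median percentile was 62.5 against 74.3 for CHD4 and 43.0 against 68.1 for Snf2h, and their median width was 686 bp against 909 bp and 500 bp against 582 bp. Brg1 was present at 60.3% of the bare CHD4 sites and 81.6% of the other sites of CHD4 alone, and at 13.3% of the bare Snf2h sites and 47.6% of the other sites of Snf2h alone.

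Co-occupancy varied little between autosomes. The share of CHD4 sites with Snf2h ran from 36.3% on chromosome 14 (Wilson interval 33.5% to 39.2%) to 42.7% on chromosome 19 (39.5% to 46.0%), and the share of Snf2h sites with CHD4 from 65.8% on chromosome 12 (62.1% to 69.3%) to 73.6% on chromosome 16 (70.1% to 76.9%). The X chromosome was lower for Snf2h, with CHD4 at 57.4% of 505 sites (53.1% to 61.7%), an interval that did not reach that of any autosome's share. For CHD4 sites the X share was 36.6% (33.3% to 40.1%), which overlapped that of chromosome 14. Sites on X were also low in their lists, with a median percentile of 50.8 for CHD4 and 44.6 for Snf2h, against 66.6 to 81.6 and 65.2 to 83.5 on the autosomes. The part of height in the X share was not tested. There were 1.62 to 1.84 CHD4 sites for each Snf2h site on the autosomes and 1.55 on X.

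Single regions show the values behind these classes. Regions were ranked by mean within-list percentile, and those above the 99th percentile of any CHD4 or Snf2h list were passed over. The highest shared region lay on chromosome 6 at 119989305 to 119990602. It had a MaxD of 47.5 and 16.1 in the CHD4 libraries (replicates 1 and 2 throughout), 48.5 and 56.7 in the Snf2h libraries and 54.4 and 24.0 in the Brg1 libraries. All 4 CHD4 and Snf2h values were within the top 3 percent of their lists. The next were a region of 3901 bp on chromosome 19, at 12083679 to 12087579, and a region of 2154 bp at 60691346 to 60693499 of chromosome 11. Annotation at these positions was not used here, because the gene tables at hand are on another assembly.

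The highest CHD4 site with no Snf2h hotspot was on chromosome 1 at 104524470 to 104525114, with a MaxD of 49.9 and 19.3 in the CHD4 libraries. Brg1 had a hotspot there in replicate 1 alone, at 6.37, the 11.4th percentile of that list. The next of this class, at 102762223 to 102762765 of chromosome 9 and 152608193 to 152608976 of chromosome 2, had hotspots of both Brg1 libraries, at 64.3 and 27.4 and at 34.7 and 53.0. The highest Snf2h site with no CHD4 hotspot was on chromosome 11 at 60013010 to 60013782, with a MaxD of 42.9 and 48.7 in the Snf2h libraries and 20.8 in Brg1 replicate 1. The others, at 82187917 to 82188557 of chromosome 4 and 45855159 to 45855735 of chromosome 17, had a Brg1 hotspot in replicate 2 alone, at 9.65 and 7.43. None of these 3 Snf2h sites held a replicated Brg1 site, and the CHD4 sites on chromosomes 9 and 2 had hotspots of both Brg1 lists.

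The 3 highest side-by-side pairs each held hotspots of the other remodeler in 1 library. On chromosome 1 an Snf2h site at 184447267 to 184448221 lay 568 bp from a CHD4 site at 184448790 to 184450783. The Snf2h site reached 22.9 and 69.3 in the Snf2h libraries and had a CHD4 replicate 2 hotspot of 19.8. The CHD4 site reached 46.5 and 19.8 in the CHD4 libraries and had an Snf2h replicate 2 hotspot of 25.3. For the pair of chromosome 14 the gap was 371 bp, between 70567675 to 70568308 for Snf2h and 70568680 to 70570773 for CHD4, and on chromosome 3 it was 767 bp, between 88395928 to 88396764 and 88397532 to 88399377. In all 3 pairs the CHD4 site was the wider, at 1846 to 2094 bp against 634 to 955 bp, and in all 3 the CHD4 site held an Snf2h replicate 2 hotspot.

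Some shared regions ranked high for one remodeler and low for the other. On chromosome 5 at 49943258 to 49943728 the Snf2h libraries reached 45.7 and 68.3, at percentiles 95.5 and 92.6 of the shared regions, while the CHD4 libraries reached 10.1 and 2.72, at percentiles 9.65 and 0.937. The region was 471 bp wide. On chromosome 12 at 102321325 to 102322557 the Snf2h values were 42.9 and 56.3 and the CHD4 values 9.01 and 8.15. In the other direction, the region on chromosome 13 at 115525062 to 115526988 had CHD4 values of 34.7 and 20.8, at percentiles 87.0 and 83.3, and Snf2h values of 11.8 and 8.75, at percentiles 8.10 and 2.63. Brg1 was tall there, at 115 and 69.7. On chromosome 1 at 70667678 to 70669155 CHD4 reached 47.2 and 16.6, Snf2h 10.4 and 10.2, and Brg1 97.9 and 110. These 4 regions were picked for the size of their rank difference, so the difference itself is a description.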

How the data were processed

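The 2 CHD4 and 2 Snf2h ChIP-seq libraries of untreated 3134 cells were compared, with 2 Brg1 libraries as a readout. CASAVA 1.6 and mm9 are named per the submitters' processing notes. Each library has a hotspot list of its own, made by the authors. The caller, its threshold and the use of inputs: not given in the sources used here. Maximum and average tag density are deposited as a signal with no stated scaling. The deposited Z score and p-value come with each hotspot, and the p-value was not used. These values, the authors' own, only ranked or filtered hotspots inside a list. Depth is unknown. The extraction text in the labels covers DNase I digestion, another assay.

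Closed intervals were merged and compared in Python 3.11.15 (numpy 2.4.6, pandas 2.3.3), with figures from matplotlib 3.10.9 and ranks from scipy 1.17.1. A gap of up to 1000 bp counted as adjacent, and matched cells needed 20 sites of each kind. Differences between same-antibody and cross-antibody library pairs were tested by exact permutation. The functions were tested on simulated sites with planted values. The members, classes and tests were chosen with earlier results of these data known. Regions named were the 3 of highest mean percentile per class and the 2 of largest rank difference each way, at or below the 99th percentile in every CHD4 and Snf2h list and not on chromosome 18. No mm9 sequence or annotation was used here. Alternatives changed 1 choice at a time, with these exceptions. Leaving out a library also let each hotspot of the other library of that antibody count as a site. Comparing same-numbered lists only also let each hotspot of a single list count as a site.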

Additional observations from a re-analysis of the deposited data

How the results depend on the processing

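Of 221 values recomputed under an alternative, 56 moved by more than the spread over the 4 single-library pairs and 9 changed sign. That spread is wide, so moves within it can be large. Cuts by height, list length or Z score, the width of 500 bp and the rule of either library were applied to the Brg1 lists too. The same-antibody minus cross-antibody differences have no such spread: for distance it was 0 bp with an overlap of at least 50% and with 1 hotspot per library, and for rho it was 0.144 with a site from either library. The cause of the moves was not tested. With the taller 50% of each list, cross-antibody rho was 0.248 and the Brg1 share at Snf2h alone 51.4%. With lists of equal length, matched co-occupancy differed by 23.3 points, rho was 0.285, the Brg1 share 73.8% at shared regions and 20.8% at Snf2h alone, the matched Brg1 difference within Snf2h sites 40.2 points, the Brg1 difference by rank order 29.1 points, and same-antibody minus cross-antibody distance turned to 0.125 bp. At a common lowest Z score, matched co-occupancy differed by 18.2 points, CHD4 lay inside Snf2h in 5.79% of pairs, 55.9% of Snf2h sites held CHD4 and the matched Brg1 difference within Snf2h sites was 34.8 points. Without the tallest 1%, rho was 0.341, the Brg1 share at shared regions 73.6% and the difference by order 5.55 points. At a hotspot width of 500 bp, Snf2h lay inside CHD4 in 20.02% of pairs and the matched Brg1 difference within CHD4 sites turned to 0.0807 points. With a site from either library, 16.3% of CHD4 sites held Snf2h and 54.6% of Snf2h sites held CHD4, 11.4% of CHD4 alone lay within 1 kb of Snf2h, 26.9% of Snf2h alone lay within 1 kb of CHD4, rho was 0.537, the Brg1 share 26.9% at CHD4 alone and 21.3% at Snf2h alone, the matched Brg1 differences 34.9 points (CHD4, turned) and 33.7 points (Snf2h), and the difference by order 2.93 points. A gap of up to 5 kb gave adjacency of 20.6% for CHD4 and 20.4% for Snf2h, average density gave rho of 0.375, and an equal number of sites, chosen after seeing the data, gave 49.8% of Snf2h sites with CHD4.

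Leaving out 1 library at a time gave these ranges: 5.79% to 78.4% of CHD4 sites with Snf2h, 33.7% to 88.9% of Snf2h sites with CHD4, 13.5% to 80.8% of pairs with Snf2h inside and 1.13% to 47.4% with CHD4 inside, 3.22% to 19.8% of CHD4 alone and 4.93% to 29.1% of Snf2h alone with the other within 1 kb, and matched co-occupancy differences of -20.8 to 64.02 points, the lowest without Snf2h replicate 1. The Brg1 share ran from 75.7% to 97.2% at shared regions, 12.4% to 92.3% at CHD4 alone and 16.9% to 72.6% at Snf2h alone, and the difference by order from 3.85 to 22.3 points. The matched Brg1 difference ran from 13.9 to 48.8 points within Snf2h sites and from -2.01 to 30.5 points within CHD4 sites, where it changed sign without CHD4 replicate 1 (30.5), CHD4 replicate 2 (6.18), Snf2h replicate 1 (5.29) and Brg1 replicate 1 (1.89).

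Same-numbered libraries share only a number: their deviations correlated at 0.0841 over 12224 regions, and no label pairs them. With a replicate block, comparing same-numbered lists only, each hotspot of a single list counted as a site. Values are means over the 2 list pairs, which were unlike: 36.1% (replicates 1) and 14.98% (replicates 2) of CHD4 hotspots overlapped Snf2h. The mean was 25.5%, and for Snf2h hotspots overlapping CHD4 it was 50.9%. Of CHD4 alone 11.1% lay within 1 kb of Snf2h, and of Snf2h alone 18.4% lay within 1 kb of CHD4. The Brg1 share was 72.2% at shared regions, 35.01% at CHD4 alone and 13.1% at Snf2h alone. The matched Brg1 differences were 13.97 points (CHD4, turned) and 37.2 points (Snf2h), and the difference by order was 12.8 points. The tests of same-antibody against cross-antibody pairs were not run with a library left out or with the block, because 1 library has no same-antibody pair. Unknown depth and the uneven lists limit all shares.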

Other observations

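Co-occupancy of Snf2h sites was higher where more CHD4 sites lay nearby. Snf2h sites with no other CHD4 site within 50 kb of their midpoint, overlapping ones left out, were co-occupied by CHD4 at 54.1% (Wilson interval 52.4% to 55.8%, 3356 sites). With 1 such neighbour the share was 66.4%, with 2 to 3 it was 72.5%, with 4 to 7 it was 76.5%, and with 8 or more it was 82.4% (79.2% to 85.3%, 592 sites). For CHD4 sites the share holding Snf2h was 39.8%, 41.6%, 40.2% and 39.2% for 0, 1, 2 to 3 and 4 to 7 Snf2h neighbours, and 52.9% (39.5% to 65.9%) for the 51 sites with 8 or more. Median percentile rose with crowding in both sets, from 56.7 to 85.5 for Snf2h and from 65.3 to 84.3 for CHD4, and the part of height was not tested. This comparison was chosen after the values were seen.

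Rank agreement between the remodelers was lower where Brg1 was present. The cross-antibody mean of rho was 0.381 (range 0.331 to 0.442) over 10127 shared regions with a Brg1 site and 0.515 (0.452 to 0.585) over 2097 without one. The CHD4 replicates went the other way, at 0.717 and 0.608, and the Snf2h replicates were at 0.651 and 0.629. Over regions at or under the median width it was 0.447, and over wider regions 0.360. These are descriptions over regions and were not tested.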
